A study of Mus musculus with 6 samples.

Results

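CD115-Ly6C- and CD115+Ly6C+, 2 sorted subsets of murine common dendritic cell progenitors, were compared by RNA sequencing with 2 libraries each. They were taken by their sort labels and made up 4 of the 6 libraries of the series. The other 2 libraries, from a CD115+Ly6C- subset, were not compared and entered the statistical model to estimate the spread between libraries. They also took part in the filter on low counts and in the scaling of library sizes. All cells came from bone marrow of wildtype C57BL/6 mice of 6 to 8 weeks, with no further allele and no treatment named in the labels. Both subsets were sorted from the same progenitor pool by flow cytometry, and polyadenylated RNA was sequenced. Whether the 2 libraries of each subset represent different animals or different sorts, or how many mice were pooled, is not in the labels. Each p-value below therefore measures only the spread between these libraries, which may be technical.

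Common dendritic cell progenitors are bone marrow cells that give rise to conventional and plasmacytoid dendritic cells. CD115, encoded by Csf1r, binds macrophage colony-stimulating factor, and Ly6C, encoded by Ly6c1 and Ly6c2, is carried by monocytes and their precursors. Early lymphoid progenitors are known for terminal deoxynucleotidyl transferase (Dntt), the Rag recombinases and the interleukin-7 receptor, while monocyte precursors are known for Ly6C, Ccr2, lysozyme and Fc receptors. The question was how far the subset negative for both proteins and the subset positive for both lay apart along these programs. In sorted bulk samples such as these, fewer cells of a type and less RNA per cell cannot be told apart.

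A set of 4 genes stood for the names given to these extremes: Dntt and Tox for the lymphoid-like side, Clec7a and F13a1 for the monocyte-like side. They were chosen with earlier results of these data known, so their values are a description of the subsets. Dntt (Entrez gene 21673, chromosome 19, 41029275 to 41059525 of GRCm38), which adds untemplated nucleotides at antigen receptor joints, was read at 2936 and 2540.3 CPM (counts scaled by TMM to a common library size) in CD115-Ly6C- replicates 1 and 2. In CD115+Ly6C+ replicates 1 and 2 it was at 33.6 and 45.1 CPM, a log2 fold change of 6.12 (SE of 0.23, edgeR adjusted p = 2.45e-06). By mean FPKM, which is scaled for transcript length, Dntt ranked 33 of 15357 named genes in CD115-Ly6C- and 4185 in CD115+Ly6C+. Tox (Entrez gene 252838, chromosome 4, 6686353 to 6991557), a nuclear factor of T and innate lymphoid development, was at 55.3 and 41.7 CPM in CD115-Ly6C- and at 0.223 and 0.599 CPM in CD115+Ly6C+ (log2 fold change 6.88 with an SE of 0.35, edgeR adjusted p = 8.5e-06). Both genes were far above the other subset in both libraries, and Tox was nearly absent from CD115+Ly6C+.

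The other 2 genes ran the opposite way. F13a1 (Entrez gene 74145, chromosome 13, 36867178 to 37050244), coagulation factor XIII A, was at 215 and 358 CPM in CD115-Ly6C- and 2544 and 3045 CPM in CD115+Ly6C+ (log2 fold change -3.29 with an SE of 0.23, edgeR adjusted p = 3.93e-05). Clec7a (Entrez gene 56644, chromosome 6, 129461591 to 129472785), the lectin receptor dectin-1 for fungal glucans, was at 2.37 and 5.22 CPM and 92.8 and 137 CPM (log2 fold change -4.92 with an SE of 0.36, edgeR adjusted p = 4.37e-05). In neither gene did the subsets overlap. F13a1 was not absent from CD115-Ly6C-, where it still ranked 1396 of 15357 by mean FPKM, against 126 in CD115+Ly6C+. All 4 genes kept their direction and their call under each alternative setting that was run.

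The promoters of 3 of these genes are printed because they stand at opposite ends of the comparison. Each is the 250 bases before the gene's first listed RefSeq transcript start on its own strand (GRCm38.p6), 5′ to 3′, and for Clec7a that start lies a few bases inside the gene's outer end: Dntt at chr19:41029025-41029274 (plus strand), Clec7a at chr6:129472780-129473029 (minus strand) and F13a1 at chr13:37050245-37050494 (minus strand). Capitals mark matches, on either strand, to the motifs searched: CAGNTG for E proteins, GAGGAAG for PU.1, TTGCNNAA for C/EBP factors, TGTGGT for RUNX factors and TGGGAA for Ikaros.
Dntt: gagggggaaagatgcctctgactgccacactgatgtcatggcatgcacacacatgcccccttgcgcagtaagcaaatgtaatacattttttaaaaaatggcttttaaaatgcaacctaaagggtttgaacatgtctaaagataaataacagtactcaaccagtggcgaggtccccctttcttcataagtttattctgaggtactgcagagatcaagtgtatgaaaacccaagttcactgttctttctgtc
Clec7a: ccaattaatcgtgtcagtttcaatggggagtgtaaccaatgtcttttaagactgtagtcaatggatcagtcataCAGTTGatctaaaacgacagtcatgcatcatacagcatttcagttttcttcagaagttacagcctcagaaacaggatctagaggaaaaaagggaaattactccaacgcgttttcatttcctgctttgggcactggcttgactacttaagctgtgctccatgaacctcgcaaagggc
F13a1: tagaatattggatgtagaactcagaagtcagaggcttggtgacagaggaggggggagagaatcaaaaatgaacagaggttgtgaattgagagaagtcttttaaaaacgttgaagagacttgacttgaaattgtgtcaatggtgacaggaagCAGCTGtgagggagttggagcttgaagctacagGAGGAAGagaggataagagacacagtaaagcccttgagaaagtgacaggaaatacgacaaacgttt
None of the 5 motifs was in the Dntt window. The Clec7a window held CAGTTG, an E protein match, 176 to 171 bases before the start. In F13a1, CAGCTG lay 99 to 94 bases and GAGGAAG 66 to 60 bases before the start. The marked matches do not overlap each other. Among the 9416 tested genes with a promoter entry, 36.9% held the E protein letters and 10.9% the PU.1 letters, so single matches of this kind are common. A match is a description of the letters and not of binding.

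The 4 libraries were of like depth. Expected counts summed to between 17961541 and 18954719 per library, and between 13705 and 14127 genes had reads. Pearson's r of log2 CPM across genes was 0.981 and 0.982 within the subsets and 0.903 to 0.91 between them, as a description, since genes are not independent replicates. Libraries of the same subset were not copies (chi-square per degree of freedom 19.68 and 20.89).

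The sort could be read back in part from the transcripts. Ly6c2 (Entrez gene 100041546, chromosome 15, 75108161 to 75112066) was at 41.8 and 61.8 CPM in CD115-Ly6C- and 1439 and 1400.5 CPM in CD115+Ly6C+ (log2 fold change -4.78 with an SE of 0.26, edgeR adjusted p = 1.19e-05). Its close paralog Ly6c1 was at 1.36 and 0.896 CPM and 22.7 and 21.5 CPM, and reads may have been split between the 2 copies by estimation. Csf1r (Entrez gene 12978, chromosome 18, 61105572 to 61131139) was at 213 and 259 CPM in the subset sorted as CD115- and 553 and 531 CPM in CD115+Ly6C+ (log2 fold change -1.20 with an SE of 0.14, edgeR adjusted p = 0.0004). The subsets did not overlap in any of the 3 genes, but the Csf1r transcript was well above 0 in cells sorted as lacking its protein.

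The genes of 4 surface proteins used to recognise early progenitors were all higher in CD115-Ly6C-, against 20.1% of all genes. They were listed as markers of the gate for common dendritic cell progenitors, so the sort itself may bear on them. Flt3, the receptor through which Flt3 ligand promotes dendritic cell output, was at 1139 and 1063 CPM against 373 and 342 CPM (log2 fold change 1.62 with an SE of 0.11, edgeR adjusted p = 2.63e-05). Kit, which binds stem cell factor, was at 189 and 169 CPM against 58.8 and 48.9 CPM. Il7r was at 79.9 and 69.6 CPM against 1.51 and 2.16 CPM (log2 fold change 5.35 with an SE of 0.21, edgeR adjusted p = 2.56e-06), the widest gap of the 4. Ly6a, which encodes Sca-1, was at 23.6 and 22.9 CPM against 7.25 and 10.9 CPM (edgeR adjusted p = 0.00731). Both libraries of CD115-Ly6C- lay above both of CD115+Ly6C+ in each of the 4 genes, as they did in 37.8% of all genes. The plot of 16 genes by library sets these beside genes of the monocyte side.

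**Figure D1:**
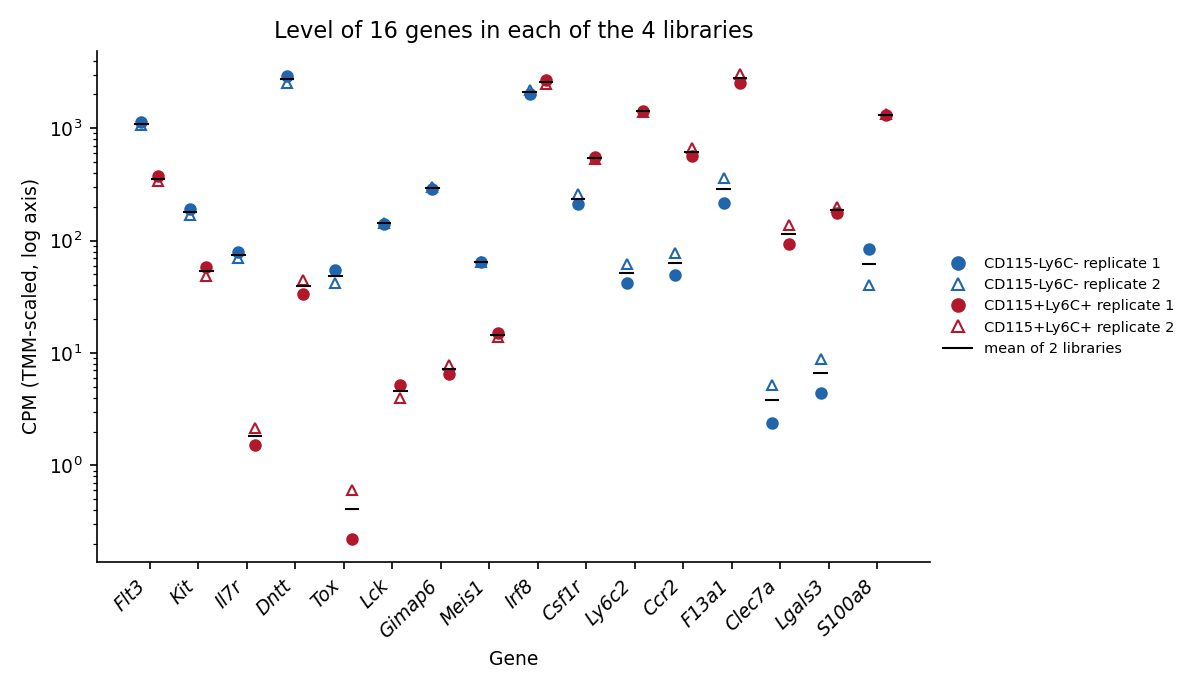
Level of 16 genes in each library, as TMM-scaled CPM on a log axis, with CD115-Ly6C- in blue, CD115+Ly6C+ in red, replicate 1 as a filled circle, replicate 2 as an open triangle and the mean of 2 libraries as a bar. The libraries of a subset sit close together, and Dntt falls from 2936 and 2540.3 CPM to 33.6 and 45.1 CPM. Irf8 has the smallest gap of the 16 genes, with both CD115-Ly6C- libraries below both of CD115+Ly6C+.

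Across the genome the 2 subsets differed widely and in both directions. In CD115-Ly6C-, 2435 of the 12127 tested genes (20.1%) were higher and 2333 (19.2%) were lower, together 39.3%. At a fold change of 2 or more the split leaned to CD115-Ly6C-, with 1248 genes (10.3%) higher and 718 (5.92%) lower, and 371 against 163 genes passed 8-fold. Both libraries of CD115-Ly6C- lay above both of CD115+Ly6C+ in 37.8% of genes and below them in 34.8%. A lack of overlap, as given for single genes above and below, was thus common over all genes. The split depended on scaling: by library totals alone, which moved the median log2 fold change of all genes up by 0.192, 3504 genes were higher and 1518 lower. The share of calls that were higher was then 69.8% rather than 51.1%. Leaving out CD115+Ly6C+ replicate 2 gave 1483 genes higher and 1500 lower, and leaving out CD115-Ly6C- replicate 1 gave 1503 and 1486.

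**Figure D2:**
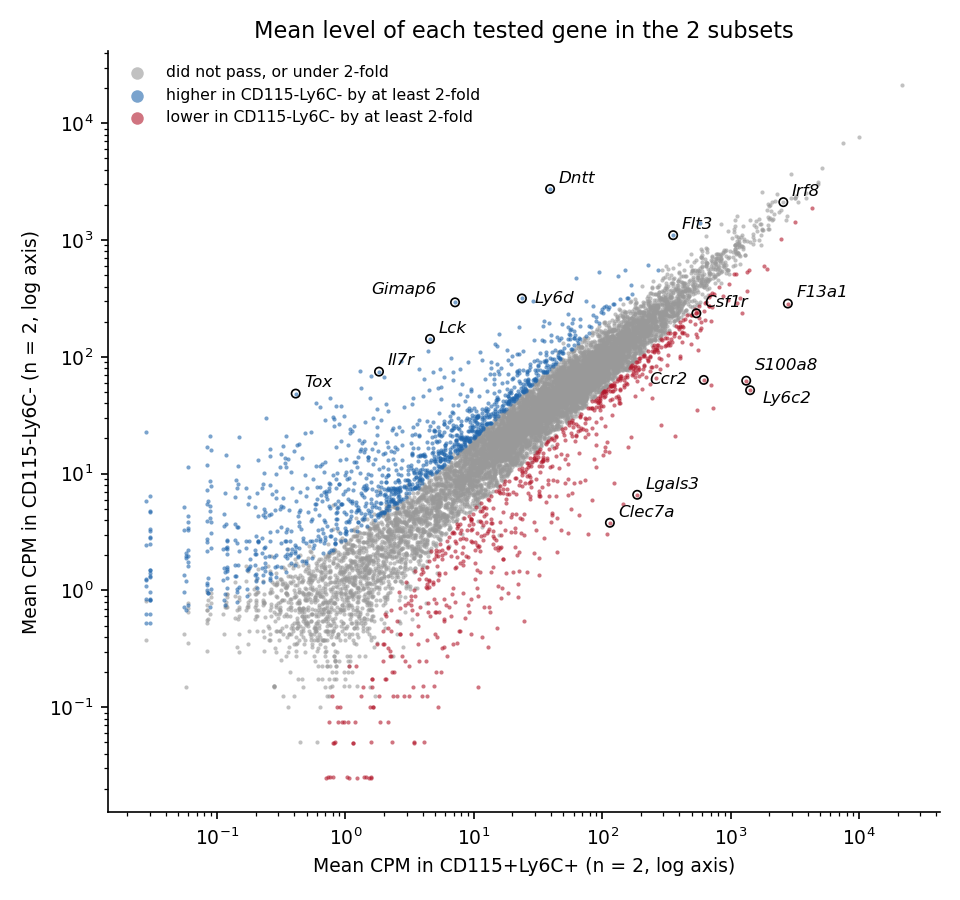
Mean CPM of each tested gene in CD115-Ly6C- (vertical axis) against CD115+Ly6C+ (horizontal axis), both on log axes and over 2 libraries, with the 1248 genes that were at least 2-fold higher in blue and the 718 at least 2-fold lower in red. Genes with 0 counts in a subset are not drawn. Dntt, Tox, Il7r, Lck and Gimap6 stand far above the main band, and Clec7a, Lgals3, Ly6c2, Ccr2 and S100a8 far below it.

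The direction moved with the level and length of the gene, and these values bear on the groups below. Among genes of 50 FPKM or more, 7.4% were higher and 48.4% lower in CD115-Ly6C-, while under 5 FPKM 23.9% were higher and 8.22% lower. When genes were cut into 4 classes of transcript length, 7.65% were higher and 37.9% lower in the shortest class (235 to 1773 nt). In the longest class (4181 to 21727 nt), 31.9% were higher and 7.59% lower. Across genes, Spearman's rho between length and log2 fold change was 0.334, given as a description. With the trend on length removed, 70.3% of the calls were kept and 78 changed sign. The part of length in single results was not tested beyond that alternative.

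**Figure D3:**
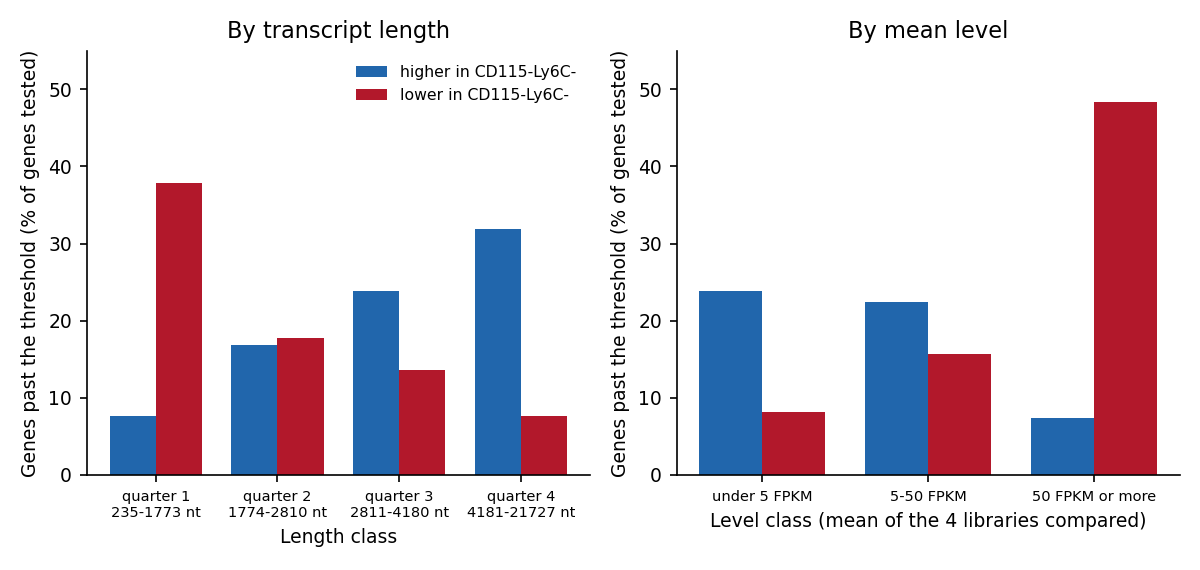
Share of tested genes that were higher (blue) or lower (red) in CD115-Ly6C-, in percent of the genes of each class, for 4 classes of transcript length and 3 classes of mean FPKM. The share that was lower goes from 37.9% in the shortest class to 7.59% in the longest, and from 8.22% under 5 FPKM to 48.4% at 50 FPKM or more.

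The most abundant genes with a 2-fold change were in part the same in both subsets. Tmsb4x, H2afz, Cst3, Lgals1, Tspo and Tyrobp were among the 10 highest of these genes by mean FPKM in each subset. All of them were lower in CD115-Ly6C-. In CD115-Ly6C- the 10 highest of the genes with a 2-fold change included 3 that were higher there: Dntt, Ly6d and Cd34. Cd34, a sialomucin of stem and progenitor cells, was at 1435 and 1373 CPM against 604 and 554 CPM (log2 fold change 1.28, edgeR adjusted p = 0.000105). In CD115+Ly6C+ all 10 were higher there, and S100a8, S100a9 and Ly6c2 were the widest apart of them. Lyz2, which encodes lysozyme of myeloid cells, was at 247 and 224 CPM in CD115-Ly6C- and 1180.3 and 1272 CPM in CD115+Ly6C+ (log2 fold change -2.38, edgeR adjusted p = 0.000258). Tyrobp, the adaptor DAP12 of activating myeloid receptors, was at 302 and 314 CPM and 962 and 959 CPM, and the galectin Lgals1 at 521 and 611 CPM and 1906 and 1928 CPM. The libraries of the subsets did not overlap in any of these genes.

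Genes of early lymphoid progenitors made up a broad block on the CD115-Ly6C- side. Of 21 tested members of that list, 14 were higher and 1 lower, against 20.1% and 19.2% of all genes, and 6 did not pass. The median log2 fold change was 3.36 against 0.0308 over all genes. Ly6d, a surface antigen that marks B-lineage-biased lymphoid progenitors, was at 295 and 338 CPM in CD115-Ly6C- and 22.7 and 24.7 CPM in CD115+Ly6C+ (log2 fold change 3.74 with an SE of 0.13, edgeR adjusted p = 2.12e-06). Arpp21 was at 55.4 and 52.6 CPM and 1.51 and 1.14 CPM. Rag2, the partner of Rag1 in cutting antigen receptor gene segments, was at 87.4 and 64.1 CPM and 0.948 and 1.68 CPM (log2 fold change 5.85, edgeR adjusted p = 1.64e-05). The subsets were apart in all 3. Cd52, a surface glycoprotein of mature leukocytes, was the member that was lower, at 149 and 138 CPM against 258 and 247 CPM (edgeR adjusted p = 0.000662, or 0.139 with the length trend removed). Cd79b, a signaling chain of the B cell receptor, was at 76.6 and 82 CPM and 90.4 and 102 CPM and did not pass (edgeR adjusted p = 0.0866).

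Signaling molecules of lymphocytes were part of the same side. Among 15 tested genes of T and NK cell signaling, 9 were higher and 1 lower, and among 16 of B cell signaling 11 were higher and 1 lower, against 20.1% and 19.2% of all genes. Lck, the kinase that starts T cell receptor signals, was at 142 and 143 CPM in CD115-Ly6C- and 5.18 and 3.95 CPM in CD115+Ly6C+ (log2 fold change 4.96 with an SE of 0.17, edgeR adjusted p = 1.59e-06). The kinase gene Prkcq was at 15 and 13.7 CPM and 0.0557 and 0.18 CPM, and Lat, the adaptor that gathers the T cell signaling complex, at 20.8 and 16.9 CPM and 1.06 and 1.74 CPM. Cd247, the zeta chain of the T cell receptor complex, had 458 counts against 2, a ratio of 198.5 (exact 95% interval 54.63 to 1644, counting error only). On the B side, Blnk, an adaptor below the B cell receptor, was at 68.1 and 80.7 CPM and 4.4 and 5.27 CPM (log2 fold change 3.94, edgeR adjusted p = 5.38e-06), and the kinase Blk at 23.6 and 20.7 CPM and 1.17 and 1.02 CPM. In all of these the subsets did not overlap. Lcp2, an adaptor also used by myeloid cells, was lower at 48.6 and 57.3 CPM against 71.6 and 89.3 CPM, as was Cd22 at 13.2 and 23.4 CPM against 37.8 and 34 CPM (edgeR adjusted p = 0.012 and 0.0243). Neither call held without CD115-Ly6C- replicate 1 (edgeR adjusted p = 0.0843 and 0.113) or CD115+Ly6C+ replicate 2 (0.083 and 0.0615), nor that of Cd22 without CD115+Ly6C+ replicate 1 (0.0879). Cd7 did not pass, at 61.1 and 81.8 CPM and 57.9 and 68.7 CPM (edgeR adjusted p = 0.453).

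Markers of mature lymphocytes were read beside these genes. The antigen receptor genes Ighm, Ighd, Igkc, Trac, Trbc1 and Trbc2 were listed in no library, so no level can be given for them. Cd3e, Cd3g and Cd8b1 had 0 counts in both CD115-Ly6C- libraries, and Cd3d was at 0.0503 and 0.0498 CPM there. Of the B cell markers, Ms4a1 was at 0.302 and 0 CPM, Pax5 at 0.101 and 0 CPM and Cr2 at 0 and 0.199 CPM in CD115-Ly6C-. Summed over the 9 listed T and NK markers, CD115-Ly6C- stood at 40.7 and 35.7 CPM and CD115+Ly6C+ at 28.1 and 22 CPM, most of it from Klrd1. Summed over the listed B cell markers, CD115-Ly6C- stood at 92.7 and 96.1 CPM and CD115+Ly6C+ at 92.8 and 105 CPM, most of it from Cd79b. The T cell genes and the 3 B cell genes named here were thus at or near 0 in CD115-Ly6C-, while Cd79b was not. Of 4 tested T and NK markers 3 were higher in CD115-Ly6C-, and of 4 tested B cell markers 1 was, against 20.1% of all genes. No member of either list was lower by edgeR, although Cd79b and Gzma had an unadjusted p under 0.05, and Gzma was lower with limma. Cd79a, a chain of the B cell receptor, was higher at 13.8 and 11.1 CPM against 1.23 and 1.2 CPM (edgeR adjusted p = 0.00305).

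The Gimap genes, a cluster of GTPases that act in lymphocyte survival, gave the highest median of the 44 lists, 4.59 over 8 members. Of these, 7 were higher in CD115-Ly6C-, against 20.1% of all genes, and Gimap3 did not pass. Gimap6 was at 288 and 298 CPM in CD115-Ly6C- and 6.47 and 7.84 CPM in CD115+Ly6C+ (log2 fold change 5.36 with an SE of 0.16, edgeR adjusted p = 1.59e-06). Gimap1 was at 91.9 and 93.1 CPM and 3.01 and 2.46 CPM, and Gimap9 at 72.8 and 76 CPM and 6.8 and 7.07 CPM. Gimap5 was at 28.1 and 25.1 CPM and 0.948 and 0.838 CPM, Gimap7 at 26.3 and 24.7 CPM and 1.34 and 0.299 CPM. Gimap8 was at 9.41 and 5.67 CPM and 0.167 and 0.599 CPM, and Gimap4 at 6.59 and 6.27 CPM and 0.39 and 0.599 CPM. The 7 genes did not overlap between the subsets and lie next to each other on chromosome 6, between 48647186 and 48754200. Gimap3 was at 0.805 and 0.448 CPM and 0.892 and 0.299 CPM, near the lower limit of these libraries (edgeR adjusted p = 0.962). Reads of these similar genes may be split between copies.

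Transcription factors of the lymphoid lineage leaned the same way. Of 21 tested, 14 were higher and none lower, against 20.1% and 19.2% of all genes, and the median log2 fold change was 0.83. Without CD115-Ly6C- replicate 1, 12 were higher and 2, Tcf3 and Tcf12, were lower. For the lists described here with a count of 0 in a direction in edgeR (lymphoid and stem cell factors, Gimap, macrophage, Fc receptors and lectins, G2 and mitosis, respiratory chain), the count was also 0 at an unadjusted p under 0.05 and with DESeq2 and limma. Besides Tox, Ets1, a factor of T, B and NK cell development, was at 46.3 and 57.7 CPM in CD115-Ly6C- and 5.57 and 3.35 CPM in CD115+Ly6C+ (log2 fold change 3.54 with an SE of 0.31, edgeR adjusted p = 9.98e-05). Satb1, a chromatin organiser of thymocytes, was at 143 and 153 CPM and 44.9 and 43.8 CPM. Gata3, a factor of T and innate lymphoid cells, had 343 counts against 3, a ratio of 99.09 (exact 95% interval 33.62 to 482.9). Ikzf1, which encodes Ikaros, was at 564 and 380.4 CPM and 346 and 319 CPM and did not pass (edgeR adjusted p = 0.0545). It was higher with DESeq2 (DESeq2 adjusted p = 0.0174). The same held in edgeR with no filter on low counts and by library totals (edgeR adjusted p = 0.00846 and 0.0177). It was also higher with limma on log2(FPKM + 0.5) and log2(FPKM + 1) (limma adjusted p = 0.0193 and 0.0197). Tcf3, which encodes the E protein E2A, was at 149 and 54.7 CPM and 117 and 89.4 CPM, and its 2 libraries within CD115-Ly6C- lay on both sides of the other subset (edgeR adjusted p = 0.976).

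Genes of stem and multipotent cells were also mostly higher in CD115-Ly6C-. Among 21 tested stem cell factors, 16 were higher and none lower (median 1.20). Among 16 surface and other marker genes, 13 were higher and 2 lower (median 1.68). Over all genes, 20.1% were higher and 19.2% lower. Meis1, a homeobox partner of Hox proteins, was at 64.5 and 64.8 CPM and 15.1 and 13.9 CPM, and Hoxa9 at 69.7 and 76.3 CPM and 21.6 and 23.7 CPM (edgeR adjusted p = 4.65e-05 and 6.42e-05). Gfi1b, a repressor of stem and erythroid-megakaryocytic cells, was at 27.6 and 20.2 CPM and 0.78 and 1.38 CPM. Myc, the growth regulator, was at 316 and 310.2 CPM and 137 and 139 CPM (log2 fold change 1.18 with an SE of 0.11, edgeR adjusted p = 0.000146). The subsets did not overlap in these 4. Mecom, a factor that long-term stem cells need, had 101 counts in CD115-Ly6C- and none in CD115+Ly6C+, at least 29.18-fold higher against a floor of 3 counts over the subset. Hlf, another factor of stem cells, had 231 counts against 1, a ratio of 200.2 (exact 95% interval 35.58 to 7941), and was named after its values were seen. Hoxa7 and Prdm16 did not pass, at 25.4 and 28.6 against 17.8 and 21.1 CPM and 8.3 and 7.36 against 6.08 and 4.49 CPM. Hoxa7 was higher by library totals and with the length trend removed (edgeR adjusted p = 0.017 and 0.0135), and with limma.

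Among the surface and other marker genes was Adgrg1, an adhesion receptor of stem cells. It was at 525 and 413 CPM in CD115-Ly6C- and 67.7 and 57.3 CPM in CD115+Ly6C+ (log2 fold change 2.91 with an SE of 0.17, edgeR adjusted p = 1.49e-05). Angpt1, the ligand of the Tie2 receptor, was at 107 and 90 CPM and 6.13 and 7.19 CPM, and Adgrl4 at 238 and 229 CPM and 53.5 and 54.4 CPM. Ctla2a, a cathepsin inhibitor, was at 74.8 and 82.5 CPM and 3.46 and 4.07 CPM. All 4 were apart between the subsets. The 2 surface genes that were lower were Cd48, which long-term stem cells lack and later progenitors carry, at 394 and 393 CPM against 782 and 856 CPM, and the tetraspanin Cd9 at 22.4 and 19.7 CPM against 41.6 and 46.5 CPM (edgeR adjusted p = 0.000168 and 0.00131). Procr, a marker of long-term stem cells, was at 0.805 and 2.44 CPM and 0.836 and 0.659 CPM, with overlapping libraries. Markers of red cells were low in both subsets, the defining gene Epor having 0 counts in CD115-Ly6C-, while Car2, a carbonic anhydrase on that list, was at 98.5 and 89.5 CPM against 12.6 and 10.7 CPM (edgeR adjusted p = 3.51e-05).

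Plasmacytoid dendritic cell genes were mostly higher in CD115-Ly6C-, with 15 higher, 4 lower and 6 not passed of 25 tested (median 1.32), against 20.1% and 19.2% of all genes. The number lower was 2 when replicate 1 of either subset was left out. The list shares Dntt and Ly6d with the early lymphoid list and Blnk with B cell signaling, so these counts are not independent. Tcf4, the E protein that plasmacytoid dendritic cells need, was at 161 and 208 CPM in CD115-Ly6C- and 88.6 and 68.4 CPM in CD115+Ly6C+ (log2 fold change 1.23 with an SE of 0.19, edgeR adjusted p = 0.0014). Bcl11a, a factor of lymphoid and plasmacytoid cells, was at 96.4 and 91.9 CPM and 58.2 and 49.9 CPM, and Ccr9, a homing receptor of thymic and plasmacytoid cells, at 46.7 and 28.3 CPM and 0.613 and 0.659 CPM. All 3 were apart. Going the other way, Upb1 was at 9.31 and 13.3 CPM and 74.9 and 106 CPM, and the receptor Cd300c at 10.1 and 12.6 CPM and 37.4 and 40.6 CPM (edgeR adjusted p = 4.64e-05 and 0.000142). Runx2, a factor of plasmacytoid cells, did not pass at 270.2 and 273 and 266 and 208 CPM (edgeR adjusted p = 0.256).

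Genes of the conventional dendritic cell types cDC1 and cDC2 took no common side. Dendritic cell factors leaned to CD115-Ly6C-, with 9 higher and 3 lower of 17 tested (median 0.74). Of 16 pan-dendritic genes, 6 were higher and 3 lower (median 0.26). Of 14 tested cDC1 genes 3 were higher and 3 lower, and of 15 cDC2 genes 5 and 5. Over all genes, 20.1% were higher and 19.2% lower. When CD115-Ly6C- replicate 2 was left out, 1 cDC1 gene was higher. The number of cDC2 genes that were higher was 2 when CD115+Ly6C+ replicate 2 was left out and 3 when CD115-Ly6C- replicate 1 was, and it was 8 by library totals. Clec9a, the cDC1 receptor for exposed actin of dead cells, was at 6.89 and 6.72 CPM in CD115-Ly6C- and 59.6 and 57.6 CPM in CD115+Ly6C+ (log2 fold change -3.11 with an SE of 0.15, edgeR adjusted p = 6.18e-06). Id2, an inhibitor of E proteins, was higher in CD115-Ly6C- at 26.6 and 33.6 CPM against 19.1 and 17.6 CPM (edgeR adjusted p = 0.0122, or 0.0684 without CD115+Ly6C+ replicate 2 and 0.0915 without CD115-Ly6C- replicate 2). Among cDC2 genes, Cd209a, the lectin DC-SIGN, was at 2.67 and 3.43 CPM and 59.8 and 94.5 CPM, and Sirpa, an inhibitory receptor of myeloid cells, at 64.3 and 64.3 CPM and 128 and 139 CPM. Ltb, which encodes lymphotoxin beta, was the opposite at 16.1 and 16.7 CPM and 1.67 and 1.56 CPM (edgeR adjusted p = 7.48e-05). Zbtb46, a factor that marks committed conventional dendritic cells, was at 0.554 and 0.746 CPM and 5.52 and 4.73 CPM (edgeR adjusted p = 0.00189), a low level in both. These genes did not overlap between the subsets. Irf8, the factor required for cDC1 and monocyte fates, was at 2016 and 2209.7 CPM and 2673 and 2479 CPM. It did not overlap between the subsets but did not pass (log2 fold change -0.29 with an SE of 0.12, edgeR adjusted p = 0.0817). It was lower with DESeq2 (DESeq2 adjusted p = 0.0374). The same held in edgeR with no filter on low counts or the length trend removed (edgeR adjusted p = 0.0489 and 0.0437).

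Monocyte genes formed the main block on the CD115+Ly6C+ side. Of 29 tested, 26 were lower in CD115-Ly6C- and 2 higher, against 19.2% and 20.1% of all genes, with a median log2 fold change of -1.68. Ly6c2 is a member, so the sort itself bears on the list. Ccr2, the receptor that lets monocytes leave the marrow, was at 49.1 and 77.8 CPM in CD115-Ly6C- and 567 and 671 CPM in CD115+Ly6C+ (log2 fold change -3.28 with an SE of 0.21, edgeR adjusted p = 2.53e-05). Tgfbi, a secreted matrix protein, was at 1.41 and 1.39 CPM and 18.1 and 17.7 CPM. The 2 members that were higher in CD115-Ly6C- were Mpeg1, a pore-forming protein of phagocytes, at 105 and 120.3 CPM against 76.2 and 75.7 CPM, and Itgam, the CD11b integrin chain, at 68.5 and 69.1 CPM against 46 and 38 CPM (edgeR adjusted p = 0.00489 and 0.00837). The call of Itgam did not hold without CD115+Ly6C+ replicate 2 (edgeR adjusted p = 0.0583), nor that of Mpeg1 with the length trend removed (0.0599). Ncf1, a subunit of the phagocyte oxidase, did not pass at 328 and 290.0 and 300.0 and 252 CPM (edgeR adjusted p = 0.425).

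Macrophage genes were lower in 8 of 12 tested and higher in none, against 19.2% and 20.1% of all genes, with 4 lower without CD115+Ly6C+ replicate 2 and 4 without CD115-Ly6C- replicate 1. By library totals 6 were lower and 1, Cd163, was higher. Lgals3, the galectin Mac-2, was at 4.38 and 8.81 CPM in CD115-Ly6C- and 176 and 199 CPM in CD115+Ly6C+ (log2 fold change -4.83 with an SE of 0.39, edgeR adjusted p = 6.07e-05). Adgre1, which encodes F4/80, was at 1.16 and 1.34 CPM and 9.14 and 11.4 CPM. Cd14, the lipopolysaccharide co-receptor, was at 0.503 and 1.69 CPM and 10.4 and 20.5 CPM, with CD115+Ly6C+ replicate 2 well above replicate 1. Cd163, a haptoglobin-hemoglobin receptor, was at 106 and 106 CPM and 97.3 and 103 CPM and did not pass (edgeR adjusted p = 0.534).

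Fc receptors and C-type lectins were lower in CD115-Ly6C- in 17 of 18 tested and higher in none (median -3.32). Over all genes, 19.2% were lower and 20.1% higher. Fcgr3, a low-affinity receptor for immunoglobulin G, was at 3.02 and 2.64 CPM in CD115-Ly6C- and 30.4 and 39.9 CPM in CD115+Ly6C+ (log2 fold change -3.63 with an SE of 0.24, edgeR adjusted p = 2.86e-05). Clec5a, a lectin that pairs with DAP12, was at 1.81 and 1.99 CPM and 29.8 and 34.2 CPM. Clec4a1 had 34 counts in CD115+Ly6C+ and none in CD115-Ly6C-, at least 13.08-fold lower there. Its edgeR adjusted p of 0.0162 became 0.0974 when CD115+Ly6C+ replicate 2 was left out, 0.0755 for CD115-Ly6C- replicate 1 and 0.072 for CD115-Ly6C- replicate 2. Clec4e, the receptor Mincle, was the member that did not pass, at 7.85 and 6.02 and 10.1 and 11.1 CPM (edgeR adjusted p = 0.0827). The other members are shown in the plot of 28 gene lists.

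**Figure D4:**
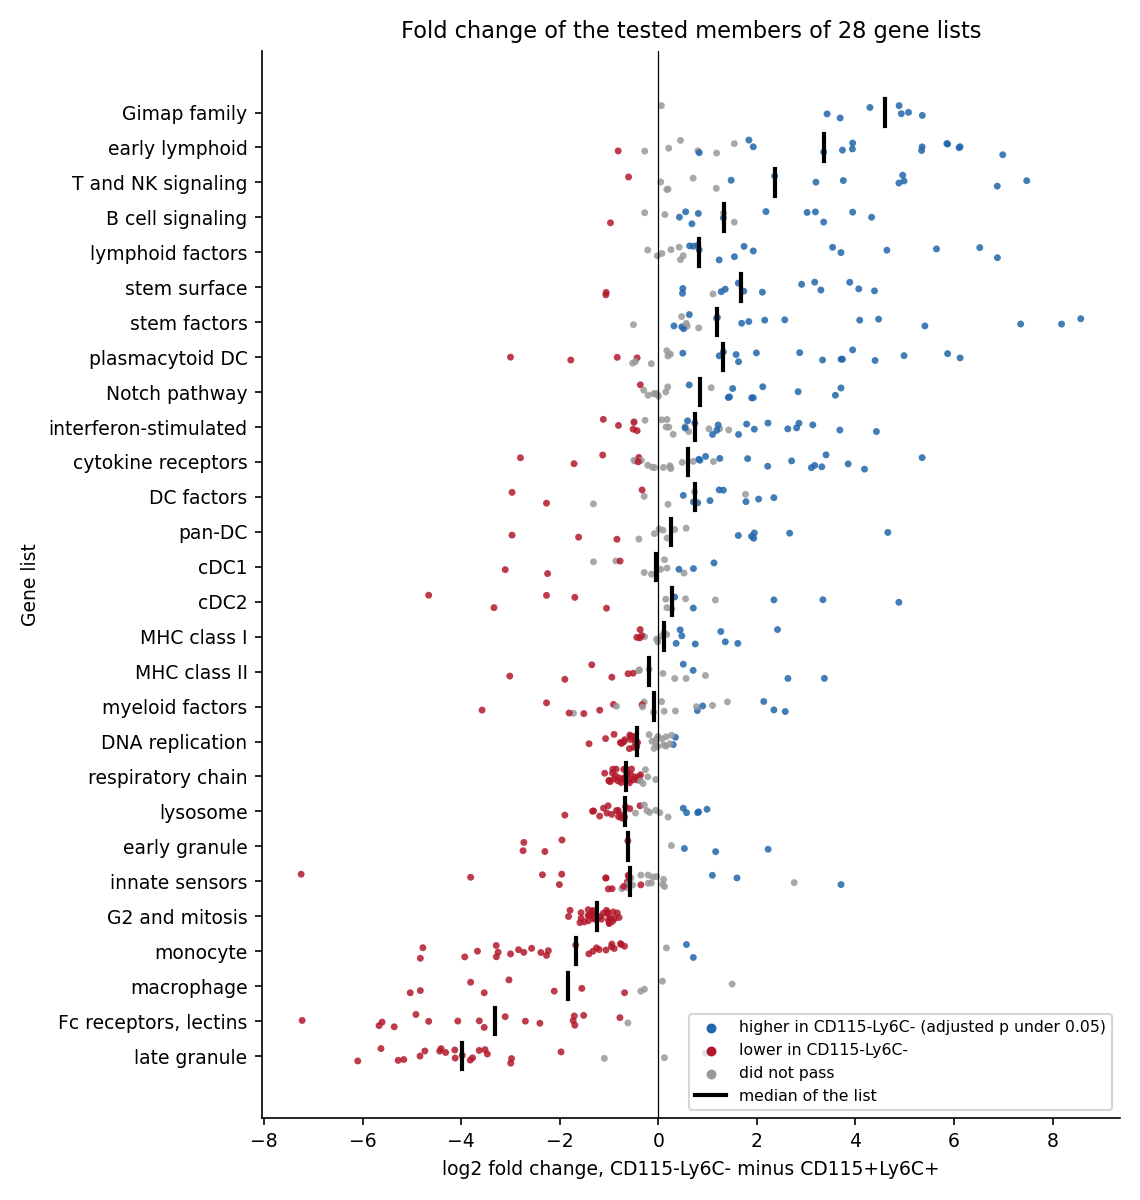
Log2 fold change (CD115-Ly6C- minus CD115+Ly6C+) of the tested members of 28 gene lists, 1 point per gene, in blue where higher, in red where lower and in grey where the edgeR adjusted p did not pass, with a bar at the median of each list. Medians run from 4.59 for the Gimap family to -3.98 for late granule genes, and the lists of conventional dendritic cell genes spread over both sides of 0.

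Granule genes were mostly lower in CD115-Ly6C-. Late granule and neutrophil genes were lower in 20 of 23 tested (median -3.98), and among 9 early granule genes 5 were lower and 3 higher, against 19.2% and 20.1% of all genes. S100a8, a subunit of calprotectin, was at 84.2 and 40.7 CPM in CD115-Ly6C- and 1321 and 1328 CPM in CD115+Ly6C+ (log2 fold change -4.41 with an SE of 0.61, edgeR adjusted p = 0.000816). Mmp8, the neutrophil collagenase, was at 6.24 and 4.73 CPM and 142 and 150.1 CPM, and Ly6g, an antigen used to identify neutrophils, at 0.654 and 0 CPM and 15.2 and 10.5 CPM (edgeR adjusted p = 0.00782, or 0.0621 with DESeq2). Retnlg was at 4.38 and 1.74 CPM and 113 and 107 CPM, and Fpr1, the formyl peptide receptor, at 0.151 and 0.149 CPM and 11.2 and 10.2 CPM. The subsets were apart in all 5.

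Summed over all late granule genes, CD115-Ly6C- stood at 560.0 and 382 CPM and CD115+Ly6C+ at 5042 and 4871 CPM. Of 16 of these genes with at least 1 CPM in CD115-Ly6C-, 13 were higher in replicate 1 than in replicate 2, with a median log2 ratio of replicate 2 to 1 of -0.86 against 0.0138 over all tested genes. Markers of neutrophils thus moved with the sort, and their part in other differences was not tested. Csf3r, the receptor for granulocyte colony-stimulating factor, was the member that was higher, at 65.7 and 57.9 CPM against 34.3 and 29.2 CPM (edgeR adjusted p = 0.00125). Ceacam1 and Il1b did not pass.

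Of the early granule enzymes, Mpo, myeloperoxidase, was high in both subsets, at 2406 and 2622 CPM in CD115-Ly6C- and 3559 and 4158 CPM in CD115+Ly6C+ (log2 fold change -0.62 with an SE of 0.14, edgeR adjusted p = 0.00856, or 0.0579 without CD115+Ly6C+ replicate 2). Elane, neutrophil elastase, was at 14.6 and 16.7 CPM and 82.4 and 127 CPM, and the related proteases Prtn3 and Ctsg were at 99.5 and 128 against 544 and 579 CPM and at 268 and 310.1 against 1068 and 1170.3 CPM. The subsets did not overlap in these 4. Ms4a3 was lower too, at 2.42 and 3.93 CPM against 17.1 and 25 CPM (edgeR adjusted p = 0.00131). Prss57, a serine protease of the same family, ran the opposite way at 91.5 and 98.4 CPM against 40.1 and 44.7 CPM, and so did Nkg7, a granule membrane protein of cytotoxic cells, at 135 and 142 CPM against 25.4 and 33.7 CPM (edgeR adjusted p = 0.0003 and 7.98e-05). Srgn, the proteoglycan core of granules, was higher by less, at 683 and 638 CPM against 467 and 449 CPM, and Serpinb1a did not pass (edgeR adjusted p = 0.0189 and 0.0608). The call of Srgn did not hold without CD115+Ly6C+ replicate 1 or 2 (edgeR adjusted p = 0.0588 and 0.0919) or CD115-Ly6C- replicate 1 (0.0805).

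**Figure D5:**
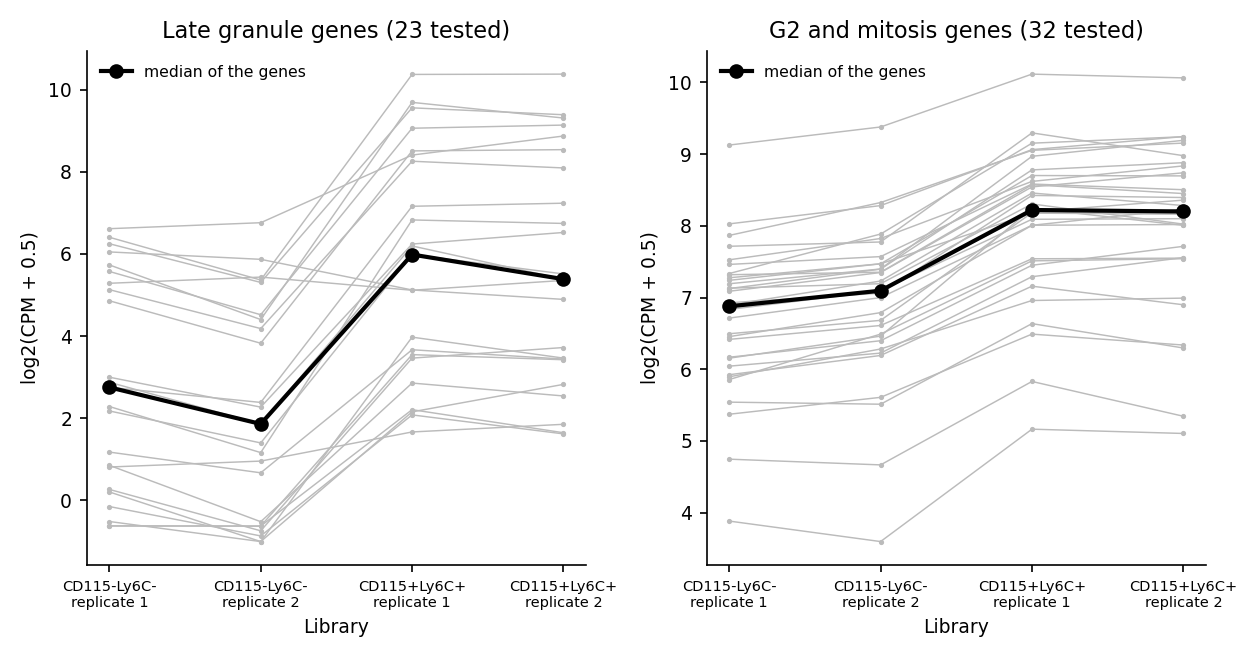
Log2(CPM + 0.5) of each tested gene (grey lines) and their median (black) in the 4 libraries, for 23 late granule genes (left) and 32 genes of G2 and mitosis (right). Late granule genes sum to 560.0 and 382 CPM on the CD115-Ly6C- side and to 5042 and 4871 CPM on the CD115+Ly6C+ side, and all 32 genes of G2 and mitosis were lower in CD115-Ly6C-.

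Myeloid transcription factors took no common side, with 21.7% higher and 30.4% lower, against 20.1% and 19.2% of all genes. Of 23 tested, 5 were higher and 7 lower, and 3 were higher when CD115-Ly6C- replicate 2 or any CD115+Ly6C+ library was left out. Spi1, which encodes PU.1, was at 199 and 238 CPM in CD115-Ly6C- and 408 and 412 CPM in CD115+Ly6C+ (log2 fold change -0.91 with an SE of 0.12, edgeR adjusted p = 0.000655). Cebpa, the factor that opens the granulocyte-monocyte path, was at 8.96 and 6.92 CPM and 24.3 and 21 CPM, Cebpd at 14.3 and 8.76 CPM and 39.2 and 41.7 CPM, and Cebpe, a factor of late granules, at 0.956 and 0.547 CPM and 9.42 and 8.62 CPM. Klf4, a factor of monocytes and cDC2, was at 3.22 and 10.2 CPM and 34.4 and 30.3 CPM (edgeR adjusted p = 0.00383). The subsets were apart in these 5. Stat3, the transducer of Flt3 and cytokine signals, was higher at 193 and 202 CPM against 105 and 107 CPM, as were Hhex, a homeobox factor of lymphoid progenitors, at 138 and 132 CPM against 85.3 and 70.3 CPM, and Nfil3 at 136 and 139 CPM against 43.4 and 36.6 CPM (edgeR adjusted p = 0.000284, 0.00145 and 4.11e-05). Nfe2 did not pass (edgeR adjusted p = 0.0771).

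Cytokine receptors were higher in 14 and lower in 5 of 32 tested, and chemokine receptors higher in 3 and lower in 4 of 11, against 20.1% and 19.2% of all genes. The number of cytokine receptors lower was 3 by library totals or when CD115+Ly6C+ replicate 1 or any CD115-Ly6C- library was left out, and 8 with the length trend removed. Il1r1, the interleukin-1 receptor, was at 82.6 and 75.8 CPM in CD115-Ly6C- and 5.63 and 5.33 CPM in CD115+Ly6C+ (log2 fold change 3.85 with an SE of 0.19, edgeR adjusted p = 6.33e-06). Both chains of the interleukin-18 receptor were higher, Il18rap at 156 and 157 CPM against 19 and 12.3 CPM and Il18r1 at 12.5 and 10.8 CPM against 0.502 and 0.778 CPM. The subsets were apart in all 3. On the myeloid side 2 receptor chains were lower, Csf2ra, for granulocyte-macrophage colony-stimulating factor, at 14.6 and 14.8 CPM against 38.8 and 57.7 CPM, and Il13ra1 at 1.71 and 2.99 CPM against 13.3 and 19.4 CPM (edgeR adjusted p = 0.00042 and 0.000648). Of the chemokine receptors, Ccr7, which guides dendritic cells and lymphocytes to lymph nodes, was at 71.2 and 70.5 CPM and 19.9 and 16.8 CPM, while Cx3cr1, the fractalkine receptor of monocytes, was at 48.7 and 55.8 CPM and 162 and 115 CPM (edgeR adjusted p = 4.45e-05 and 0.0004). Cxcr2, the neutrophil receptor, was at 1.76 and 1.09 CPM and 12.2 and 10.4 CPM. Cxcr4, the marrow retention receptor, did not pass at 25.4 and 21.8 and 32.8 and 32.4 CPM (edgeR adjusted p = 0.0918).

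Notch pathway genes were higher in 10 and lower in 1 of 20 tested, against 20.1% and 19.2% of all genes. None was lower by library totals or when any 1 of the 4 libraries was left out. Notch1, the receptor that directs T cell fate, was at 174 and 132 CPM in CD115-Ly6C- and 47.7 and 32.8 CPM in CD115+Ly6C+ (log2 fold change 1.93 with an SE of 0.22, edgeR adjusted p = 0.000366). Maml2, a coactivator of Notch, was at 25.2 and 32.3 CPM and 6.58 and 6.65 CPM, and Mfng, a sugar transferase that tunes Notch to its ligands, at 100.4 and 78.8 CPM and 34.8 and 31 CPM. Both libraries of CD115-Ly6C- were above both of the other subset in these 3.

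Innate sensors and their adaptors were lower in 14 and higher in 3 of 32 tested, and 9 were lower without CD115-Ly6C- replicate 1. Tlr7, the endosomal sensor of single-stranded RNA, was the clearest gene on the CD115-Ly6C- side, at 42.6 and 46.3 CPM against 3.9 and 2.87 CPM (log2 fold change 3.71 with an SE of 0.20, edgeR adjusted p = 1.08e-05). Its X-linked neighbour Tlr8 had 35 counts in CD115+Ly6C+ and none in CD115-Ly6C-, at least 13.46-fold lower there, a call (edgeR adjusted p = 0.0107) that did not hold without CD115-Ly6C- replicate 1 (0.0612) or 2 (0.0563), or with limma on log2(FPKM + 0.5) or log2(FPKM + 1) (limma adjusted p = 0.0509 and 0.0772). The 2 related sensors thus lay on opposite sides. Tlr2, which senses bacterial lipoproteins, was at 17.1 and 23 CPM and 39.7 and 41.3 CPM, and Pycard, the inflammasome adaptor ASC, at 141 and 161 CPM and 283 and 296 CPM (edgeR adjusted p = 0.00236 and 0.000457). Nod1, a sensor of peptidoglycan fragments, was higher at 16.3 and 16.4 CPM against 6.97 and 8.32 CPM (edgeR adjusted p = 0.00482). The shares of innate sensors lower and higher were 43.8% and 9.38%, against 19.2% and 20.1% of all genes.

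Interferon-stimulated genes were higher in 16 and lower in 5 of 33 tested, against 20.1% and 19.2% of all genes. By library totals 21 were higher and 2 lower. The number lower was 3 when CD115+Ly6C+ replicate 2 or CD115-Ly6C- replicate 2 was left out and 2 when CD115-Ly6C- replicate 1 was. Rtp4 was at 35.9 and 37.9 CPM in CD115-Ly6C- and 2.45 and 3.29 CPM in CD115+Ly6C+ (log2 fold change 3.68 with an SE of 0.23, edgeR adjusted p = 1.99e-05). Ddx58, the cytosolic RNA sensor RIG-I, was at 29.5 and 21.3 CPM and 1.56 and 0.778 CPM, and Ifi44 at 60.8 and 56.8 CPM and 8.64 and 7.6 CPM. These 3 did not overlap. The list did not move as a block, since Cmpk2, a mitochondrial nucleotide kinase, was lower at 45.7 and 52.9 CPM against 102 and 112 CPM and Ifitm2, a membrane protein that blocks viral entry, at 237 and 248 CPM against 405 and 446 CPM (edgeR adjusted p = 0.000532 and 0.000889, the latter 0.135 with the length trend removed). Irf9, part of the factor that drives these genes, did not pass at 144 and 161 and 121 and 143 CPM (edgeR adjusted p = 0.211).

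Antigen presentation genes were mixed, beside 20.1% higher and 19.2% lower over all genes. In the class II group 4 of 17 were higher and 6 lower, and 2 were higher without CD115+Ly6C+ replicate 1 or CD115-Ly6C- replicate 2. H2-Ob, a chain of the inhibitor H2-O of peptide loading that B cells carry, was at 307 and 297 CPM in CD115-Ly6C- and 30.4 and 28 CPM in CD115+Ly6C+ (log2 fold change 3.37 with an SE of 0.11, edgeR adjusted p = 1.59e-06). H2-DMb1, a chain of the loading catalyst that H2-O holds back, was the reverse, at 72.7 and 94.9 CPM and 194 and 233 CPM (edgeR adjusted p = 0.0003). Ifi30, a lysosomal thiol reductase, was at 19.4 and 21.9 CPM and 178 and 155 CPM, and the cathepsin Ctsh at 117 and 179 CPM and 491 and 609.7 CPM (edgeR adjusted p = 1.07e-05 and 0.000258). In these 4 the subsets were apart, while the class II chain H2-Ab1 and the invariant chain Cd74 did not pass (edgeR adjusted p = 0.121 and 0.2). In the class I group 8 of 19 were higher and 4 lower, and by library totals 10 and 0. Leaving out 1 of the 4 libraries left 3 to 6 higher and 0 to 2 lower. Tap2, a subunit of the peptide transporter, was at 251 and 261 CPM and 101 and 98.6 CPM, and H2-K1 at 1135 and 1022 CPM and 672 and 611 CPM (edgeR adjusted p = 4.37e-05 and 0.00193). B2m, the light chain, did not pass at 2454 and 2526 and 2150.3 and 2447 CPM (edgeR adjusted p = 0.421).

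Integrins and adhesion genes were higher in 8 and lower in 4 of 21 tested, against 20.1% and 19.2% of all genes. With the length trend removed, 5 were higher and 5 lower. The number higher was 4 without CD115+Ly6C+ replicate 2 or CD115-Ly6C- replicate 2. Itga4, the alpha 4 chain that binds VCAM-1 in the marrow, was at 205 and 186 CPM in CD115-Ly6C- and 39.8 and 37.5 CPM in CD115+Ly6C+ (log2 fold change 2.34 with an SE of 0.11, edgeR adjusted p = 6.33e-06). Itgb7, a beta chain that pairs with it, was the reverse at 207 and 268 CPM and 515 and 556 CPM (edgeR adjusted p = 0.000362). The 2 partners therefore differed in opposite directions, with no overlap in either. In the group of actin and annexin genes 14 of 25 were lower, and Tln1, which encodes talin, was higher, a call that did not hold without CD115+Ly6C+ replicate 2 or CD115-Ly6C- replicate 1 (edgeR adjusted p = 0.206 and 0.177). Those that were lower included Anxa2 at 147 and 196 CPM against 538 and 624 CPM and Tmsb4x, thymosin beta 4, at 1413 and 1433 CPM against 3053 and 3272 CPM (edgeR adjusted p = 9.26e-05 and 0.000109). Actb did not pass (edgeR adjusted p = 0.0503), but was lower with DESeq2 (DESeq2 adjusted p = 0.0167). The share of actin and annexin genes lower was 56%, against 19.2% of all genes.

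All 32 genes of G2 and mitosis were lower in CD115-Ly6C-, against 19.2% of all genes, with a median log2 fold change of -1.24. The count was 32 of 32 under each alternative setting that was run. Birc5, which encodes survivin of the chromosomal passenger complex, was at 146 and 168 CPM in CD115-Ly6C- and 501 and 585 CPM in CD115+Ly6C+ (log2 fold change -1.79 with an SE of 0.13, edgeR adjusted p = 4e-05). Cdk1, the kinase that starts mitosis, was at 121 and 133 CPM and 343 and 336 CPM, and Cenpa, the centromere histone, at 89.7 and 102 CPM and 290.1 and 287 CPM. Ube2c, the ubiquitin enzyme of the anaphase complex, was at 70.7 and 87.6 CPM and 303 and 257 CPM. None of these overlapped between the subsets.

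Genes of DNA replication differed less and not as a block, beside 19.2% lower and 20.1% higher over all genes. Of 34 tested, 18 were lower and 2 higher (median -0.44), or 13 and 6 by library totals, and 11 were lower without CD115-Ly6C- replicate 1. Tk1, thymidine kinase, was at 129 and 137 CPM in CD115-Ly6C- and 339.6 and 366 CPM in CD115+Ly6C+ (log2 fold change -1.40 with an SE of 0.10, edgeR adjusted p = 4.37e-05), and Tyms, thymidylate synthase, at 121 and 133 CPM and 258 and 276 CPM. The replicative helicase went otherwise: Mcm2 was higher at 543 and 570.0 CPM against 419 and 455 CPM, Mcm6 at 1289.9 and 1365 CPM against 1056 and 1096 CPM, and Mcm7 and Mcm3 did not pass (edgeR adjusted p = 0.026, 0.0389, 0.935 and 0.397). The calls of Mcm2 and Mcm6 did not hold without any 1 of the 4 libraries (edgeR adjusted p = 0.0563 to 0.145 and 0.091 to 0.194) or with the length trend removed (0.178 and 0.145). Of 20 regulators of G1, 3 were higher and 7 lower, against 20.1% and 19.2% of all genes, or 5 higher by library totals. Cdkn1a, the inhibitor p21, was at 64.8 and 78.3 CPM and 25.4 and 26.8 CPM, whereas Cdkn2c, the inhibitor p18, was at 10.3 and 7.26 CPM and 40.2 and 35.4 CPM (edgeR adjusted p = 0.000186 and 0.000284). Ccnd2, cyclin D2, was higher at 523 and 590.2 CPM against 298 and 285 CPM, and Ccne1, cyclin E1, lower at 43.2 and 56.4 CPM against 94.8 and 99.4 CPM (edgeR adjusted p = 0.00113 and 0.00127). The subsets did not overlap in these 4 regulators.

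Nuclear genes of the respiratory chain were lower in 30 of 35 tested, against 19.2% of all genes, and higher in none (median -0.65). The count was 24 by library totals and 13 with the length trend removed. Cox7c, a small subunit of cytochrome oxidase, was at 79.3 and 79.5 CPM in CD115-Ly6C- and 151 and 161 CPM in CD115+Ly6C+ (log2 fold change -0.97 with an SE of 0.10, edgeR adjusted p = 0.000217, or 0.0582 with the length trend removed). Ndufa2, a subunit of complex I, was at 105 and 108 CPM and 199 and 226 CPM. Sdha, a subunit of complex II with a longer transcript, was at 654 and 707 CPM and 697 and 716 CPM and did not pass (edgeR adjusted p = 0.707). Glycolysis genes were lower in 11 and higher in 6 of 23, against 19.2% and 20.1% of all genes. By library totals 7 were lower. Their median log2 fold change was -0.25, or -0.129 without CD115+Ly6C+ replicate 1 and -0.139 without CD115-Ly6C- replicate 2. Hk3, the hexokinase of myeloid cells, was at 64.5 and 77.8 CPM and 192 and 216 CPM, and Ldhb, a lactate dehydrogenase chain, was the reverse at 34.7 and 31.2 CPM and 5.85 and 7.96 CPM (edgeR adjusted p = 7.63e-05 and 0.000107).

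Lysosomal genes were lower in 18 and higher in 5 of 30 tested, and 3 were higher when CD115-Ly6C- replicate 1 or any CD115+Ly6C+ library was left out. Ctsz, a cathepsin, was at 249 and 292 CPM in CD115-Ly6C- and 672 and 691 CPM in CD115+Ly6C+ (log2 fold change -1.33 with an SE of 0.11, edgeR adjusted p = 8.26e-05), and Lamp1, a main lysosomal membrane protein, at 336 and 373 CPM and 683 and 752 CPM. Npc1, the cholesterol exporter of the lysosome, was higher at 45.1 and 44.6 CPM against 25.9 and 19.3 CPM (edgeR adjusted p = 0.00245). Sterol and fatty acid genes were higher in 8 and lower in 2 of 25, with 5 and 4 without CD115+Ly6C+ replicate 1, and 4 higher without CD115-Ly6C- replicate 1. Srebf2, the factor that drives sterol synthesis, was at 191 and 168 CPM and 89 and 75.8 CPM, and Fasn, fatty acid synthase, at 96 and 71.7 CPM and 46.2 and 32.4 CPM (edgeR adjusted p = 0.00189 and 0.00468). Fdps, an enzyme of the same route, was lower at 159 and 203 CPM against 401 and 401 CPM (edgeR adjusted p = 0.00033). The subsets did not overlap in these 6. Of lysosomal genes 16.7% were higher and 60% lower, and of sterol and fatty acid genes 32% and 8%. The shares over all genes were 20.1% and 19.2%. Of 30 ribosome biogenesis genes 7 were higher (23.3%), 4 lower (13.3%) and 19 did not pass, near the 20.1% and 19.2% of all genes. The counts were 13 and 2 by library totals and 4 and 1 with the length trend removed. Leaving out 1 of the 4 libraries left 3 to 6 higher and 1 to 3 lower, the fewest of both without CD115+Ly6C+ replicate 2. Polr1a, the large subunit of RNA polymerase I, was at 44 and 43 CPM and 25.7 and 22.5 CPM (edgeR adjusted p = 0.00179), and Npm1, nucleophosmin, did not pass (edgeR adjusted p = 0.275).

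Further genes at the edge of the range belong to no list. Gfra1, a receptor for glial cell line-derived neurotrophic factor, had 838 counts against 3 on the CD115+Ly6C+ side, for a ratio of 242.1 (exact 95% interval 82.55 to 1176). Lax1, an adaptor that dampens lymphocyte receptor signals, was at 45.5 and 35.1 CPM and 0.223 and 0.958 CPM, and St6gal1, a sialyltransferase of B cells, at 19.4 and 22.3 CPM and 0.446 and 0.24 CPM (edgeR adjusted p = 6.98e-05 and 4.11e-05). Mycn, a relative of Myc, was at 20.6 and 14.6 CPM and 0 and 0.838 CPM, and Sstr2, a somatostatin receptor, at 43.2 and 33 CPM and 1 and 0.838 CPM. P2ry14, a receptor for UDP-glucose, was at 71.5 and 64.9 CPM and 0.725 and 2.46 CPM. The subsets were apart in each of these by choice, since only genes without overlap between the subsets were taken. At 0 counts in CD115+Ly6C+ were Art4 (176 counts in CD115-Ly6C-, at least 50.84-fold higher), which encodes the Dombrock blood group antigen, and Nkx2-3, a homeobox factor (77 counts, at least 22.24-fold higher). On the other side, Ccl2, the ligand of Ccr2, was at 0.302 and 0.995 CPM and 5.91 and 20.8 CPM, and Chil1, a chitinase-like protein, at 0.705 and 0.398 CPM and 23 and 26.6 CPM (edgeR adjusted p = 0.00322 and 0.000926). Sirpb1b had 66 counts in CD115+Ly6C+ and none in CD115-Ly6C-, at least 25.38-fold lower there, and Cp, which encodes the copper oxidase ceruloplasmin, had 50, at least 19.23-fold lower.

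The promoters of the genes that differed by 2-fold or more were searched with the same 5 motifs, over the 250 bases before the start. E protein letters were in 42.4% of 900 promoters of genes higher in CD115-Ly6C-, 43% of 558 of genes lower and 36.9% of all 9416. PU.1 letters were in 11.8%, 14.5% and 10.9%, and C/EBP letters in 7.33%, 11.5% and 7.67%. RUNX letters were in 14.4%, 13.6% and 11.1%, and Ikaros letters in 23.1%, 24.2% and 20.4%. Only the PU.1 and C/EBP letters were more frequent on the CD115+Ly6C+ side than on the other by more than 2 percentage points, and these shares are given with no test.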

How the data were processed

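For each library the authors deposited, per the file headers, FPKM and RSEM's expected counts (estimates with decimals). Alignment to mm10 with Bowtie2 and quantification with RSEM are named in the submitters' processing notes, with no version or setting. The deposited series table held the same FPKM values (largest difference 0.0). A gene absent from a library's table was taken as 0. Of 16135 genes listed, 778 carried only a number of the submitters (3.56% to 4.18% of the counts). Of the other 15357, 15332 were found in RefSeq's table for GRCm38.p6 (the assembly of mm10), and 21 symbols that had become dates were restored.

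Rounded expected counts, scaled by TMM, went into edgeR 4.0.16 (R 4.3.3) and its quasi-likelihood F test. Genes were kept by filterByExpr (minimum count 10, minimum total 15), and all 6 libraries entered 1 fit with 3 residual and 5.65 prior degrees of freedom (common dispersion 0.0231). A gene passed at a Benjamini-Hochberg adjusted p under 0.05 over 12127 genes. The scripts were tested on simulated data. An SE is the log2 fold change divided by the square root of its F. Ratios with 1 to 3 counts carry an exact (Clopper-Pearson) 95% interval. PCR reads without molecular identifiers are not independent molecules, so intervals and floors cover counting error only. Lengths are the lengths in the deposited tables. Promoters are from RefSeq.

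Members and the 44 gene lists (805 symbols, 20 of them listed in no library) were chosen with earlier results of these data known. Named genes were the sort, gate and label markers and the 20 largest and 20 smallest fold changes. Those fold changes were taken among genes past the threshold without overlap between the subsets, with at least 5 FPKM in the higher subset. Up to 6 passed members a list were taken by smallest adjusted p, and up to 2 not passed by highest mean FPKM. The 10 most abundant genes with a 2-fold change a subset and genes at 0 counts in 1 subset were added. Some genes that this rule takes are not reported here. No source says whether the reads keep strand, so overlapping genes may share reads. By start and end, these named genes overlap a protein-coding gene: Rag2 (Iftap), Runx2 (Supt3), Clec9a (Clec12b), Zbtb46 (Zgpat, Lime1 and Abhd16b), Prss57 (Fstl3 and Palm), Cebpd (Spidr), Rtp4 (Masp1), B2m (Patl2), Itga4 (Cerkl), Tk1 (Afmid), Mcm7 (Ap4m1), Ndufa2 (Tmco6), Hk3 (Unc5a), Ctsz (Nelfcd), Npc1 (Rmc1), Sstr2 (Slc39a11), P2ry14 (Med12l), Cd247 (Pou2f1), Gzma (Cdc20b), Cd300c2 (Cd300ld4), Gfra1 (Gm46650) and Cp (Hps3).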

Additional observations from a re-analysis of the deposited data

How the results depend on the processing

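The alternatives were DESeq2 1.42.0, its size factors in edgeR, library totals, no filter on low counts, the 4 libraries alone, removal of the length trend, limma 3.58.1 on log2(FPKM + 0.5) and log2(FPKM + 1), a replicate block and leaving out each library. By library totals 3504 genes were higher and 1518 lower, and with log2(FPKM + 1) 411 genes were lower by at least 2-fold. The other settings that kept all 6 or the 4 compared libraries gave 1854 to 3429 genes higher and 1673 to 2480 lower. Leaving out 1 library gave 1483 to 2369 genes higher, 1486 to 2263 lower, 912 to 1239 higher by at least 2-fold and 574 to 736 lower by at least 2-fold. Where this left a subset with 1 library, that library was assumed to vary like the others. Of 193 named genes past the threshold, 166 passed under every setting that gave a value. No named gene with a test changed its direction while called. Some named genes described as not passed did pass in an alternative that kept the 4 compared libraries. Besides those given in place, these were B2m, Cd7, Cd74, Cxcr4, Irf9, Mcm3, Runx2 and Serpinb1a. Labels share the replicate numbers 1 and 2 between subsets. The difference of replicate 1 and 2 correlated at r = 0.383 between the subsets over 8771 genes, a pairing of numbers only. With the replicate block 2301 genes were higher and 2249 lower, and the calls of Klrd1, Mcm6 and Clec4a2 were lost (edgeR adjusted p = 0.0501, 0.0594 and 0.0633), with no other named call lost, and Fos, Egr3 and Ikzf1 passed (0.00356, 0.0406 and 0.0261). The cause of these changes was not tested. A fit without 1 library also has fewer samples, which cannot be told apart from the part of the library left out. With 2 libraries a subset the spread rests on 3 residual degrees of freedom, and genes with few reads are limited by depth.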

Other observations

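Some genes that lay next to each other on a chromosome shared a direction. Among tested genes there were 40 runs of at least 3 neighbours that all passed the threshold in the same direction with a fold change of 2 or more, 22 higher and 18 lower in CD115-Ly6C-, together 145 genes. Leaving out 1 of the 4 libraries kept every call in 19 to 27 of the 40 runs. These runs, and the genes named in them, were chosen after their values were seen, and reads of similar neighbours may be split between copies. Besides the Gimap genes, a run of 5 guanylate-binding protein genes on chromosome 5 (Gbp8, Gbp9, Gbp4, Gbp10 and Gbp6, 105012513 to 105295871) was higher, and so was a run that held Oas2, Oas3, Oas1c and Oas1b, genes of the antiviral 2′-5′ oligoadenylate synthetases. The calls of Oas1c and Oas1b did not hold without any 1 of the 4 libraries (edgeR adjusted p = 0.0631 to 0.167), nor that of Oas2 without CD115+Ly6C+ replicate 2 or CD115-Ly6C- replicate 1 (0.085 and 0.0767). Cd28, Ctla4 and Icos, the costimulatory receptor genes of T cells, formed a run of 3 on chromosome 1, in which the call of Ctla4 did not hold without CD115+Ly6C+ replicate 2 or CD115-Ly6C- replicate 1 (edgeR adjusted p = 0.0757 and 0.0645). Several of the lower runs held families of surface receptors. These included Pirb with Pira1, Pira2, Lilra6 and Lair1 on chromosome 7, 5 Cd300 genes on chromosome 11, 5 Ms4a genes on chromosome 19 and Clec4a1, Clec4a3, Clec4b1, Clec4a2 and Clec4d on chromosome 6. In the Clec4 run 2 or 3 of the 5 calls did not hold without any 1 of the 4 libraries, and in the Cd300 run 1, Cd300c2, without CD115-Ly6C- replicate 1. The calcium-binding protein genes S100a4, S100a6, S100a8 and S100a9 on chromosome 3 and the Fc receptor genes Fcgr2b, Fcgr4 and Fcgr3 on chromosome 1 formed 2 more.

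Immediate early genes, which cells switch on within minutes of a stimulus, varied between libraries of the same subset. In a list of 16 made after the values were seen, 15 were higher in replicate 2 than in replicate 1 in both subsets. The exception, Egr3, was at 0 counts in CD115+Ly6C+. The median log2 ratio of replicate 2 to replicate 1 was 0.92 over 15 of these genes in CD115-Ly6C- and 0.85 over 14 in CD115+Ly6C+, against 0.01 and 0.00333 over all tested genes, each over genes of at least 1 CPM in that subset. Fos, a subunit of the AP-1 factor, was at 878 and 1887 CPM in CD115-Ly6C- and 539 and 1148 CPM in CD115+Ly6C+, and did not pass (edgeR adjusted p = 0.291). Libraries of the same replicate number were higher in CD115-Ly6C- for both numbers, and with the replicate block the edgeR adjusted p was 0.00356. Jun, its partner, was at 478 and 752 CPM and 188 and 263 CPM with no overlap (log2 fold change 1.45, SE 0.31, edgeR adjusted p = 0.00666). Nr4a1, an orphan nuclear receptor, was at 43.2 and 119 CPM and 6.58 and 20.7 CPM (edgeR adjusted p = 0.0149), and that call did not hold without CD115+Ly6C+ replicate 1 or CD115-Ly6C- replicate 2 (edgeR adjusted p = 0.0709 and 0.0707). By edgeR, 5 of the 16 were higher in CD115-Ly6C- and 0 lower, against 20.1% and 19.2% of all genes.

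Basophil and eosinophil genes varied within the subsets as well. Prg2, the eosinophil major basic protein, was at 0.805 and 5.12 CPM in CD115-Ly6C- and 1.45 and 30 CPM in CD115+Ly6C+ (edgeR adjusted p = 0.275). Prss34, a basophil protease, was at 4.83 and 11.4 CPM and 53.9 and 21.6 CPM (edgeR adjusted p = 0.0128), a call that did not hold without CD115+Ly6C+ replicate 1 (edgeR adjusted p = 0.084). Mcpt8, another basophil protease, was at 13.1 and 19.2 CPM and 27.3 and 13.7 CPM and did not pass (edgeR adjusted p = 0.512).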
